A study of Mus musculus with 6 samples.

Results

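The data concern 10 genes around the feedback arm of cytokine signalling in stimulated mouse splenocytes. They are the feedback inhibitor genes Socs1, Socs2, Socs3 and Cish, the kinase gene Jak3, the transcription factor genes Stat3, Stat5a and Stat5b, and Pim1 and Bcl6, genes known to respond to these factors. The 10 were chosen by gene symbol from the deposited count table, which has 23453 gene rows, and all 10 were among the 12423 genes that passed the filter on low counts. The study measured RNA by sequencing in cultures of splenocytes from wild-type OT1 mice on the C57BL/6 strain, whose T cells carry a transgenic receptor that recognises an OVA peptide. All cultures received the peptide for 48 h and then 1 of 2 media for 8 h, TCM in 3 libraries and FCM in 3 libraries. The labels expand neither name, give the FCM samples the title vehicle, and name cytotoxic T lymphocytes as the cell type. No label states whether the replicates were separate animals or cultures. A p-value here therefore reflects only how much these libraries vary, and that variation may be technical.

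The groups are called here by the column titles of the count table. The deposited normalized table holds the same 6 libraries under the opposite group titles, in 6 of 6 columns, so every direction below turns round under that table's header, and which header is right could not be settled. Totals ran from 17166687 to 21197117 counts in the TCM libraries and from 18729982 to 25789381 in the FCM libraries. Levels are CPM, counts relative to the library total, scaled by TMM, a factor that corrects for library composition. Markers of T cells summed to 694 to 811 CPM in TCM and 640 to 729 CPM in FCM, with 7 of 8 markers tested, 1 higher and 1 lower. Other cells were also present in these cultures. Neutrophil markers summed to 1124 to 2173 CPM in TCM against 7928 to 12475 CPM in FCM, with 9 of 10 lower, and B cell markers to 895 to 1092 CPM in TCM against 1623 to 1973 CPM in FCM, with 4 of 6 lower. Macrophage markers (4 of 8 lower, 2 higher), dendritic cell markers (3 of 6 lower), NK cell markers (3 of 6 lower, Klra4 at 0 in every library) and erythroid markers (3 of 6 lower) had summed levels of 107 to 122, 14.3 to 16.3, 27.1 to 29.3 and 2.49 to 2.81 CPM in TCM. In FCM the same sums were 483 to 564, 30.6 to 33.1, 61.2 to 68.4 and 5.16 to 6.59 CPM. Over all tested genes 28.8% were called higher and 30% lower, by the test given below. In bulk RNA, fewer cells of a type and less RNA per cell cannot be told apart.

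Cytokine receptors without enzymatic activity of their own signal through JAK kinases, which phosphorylate STAT proteins that then move to the nucleus and bind DNA. In T cells IL-2 and related cytokines act mainly through JAK1, JAK3 and the paired factors STAT5A and STAT5B, whereas IL-6, IL-10 and IL-21 act largely through STAT3. The STATs switch on SOCS and CIS genes, whose products bind receptors or JAKs through an SH2 domain and recruit a ubiquitin ligase through a SOCS box, so the RNA of these genes is often used as a readout of recent signalling. BCL6, a repressor that favours follicular helper and memory fates, is held down by IL-2 and STAT5 in T cells, and STAT5 and BCL6 recognise similar DNA.

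By the count table's header, Socs3, Cish, Stat5a and Stat5b rose in TCM and Bcl6 fell, while Socs1, Socs2, Stat3, Jak3 and Pim1 did not pass the test. Thus 4 of the 10 were called higher, where 28.8% of all tested genes were, and 1 was called lower, where 30% of all tested genes were (edgeR's quasi-likelihood test, Benjamini-Hochberg adjusted p under 0.05 over all genes). Every TCM library lay on 1 side of every FCM library for 6 of the 10 genes, against 64.2% of all tested genes. With 5 of 10 called, these genes passed no more often than the table as a whole, where 58.8% passed in either direction. With the replicate number as a block 6 of the 10 passed, against 73.3% of all tested genes. The median log2 change was 0.24 over the 10 genes and -0.02 over all genes. With library totals as the sole scaling the median of all genes moved to -0.23 and the calls became 3 higher and 1 lower, against 19.0% and 31.9% of all tested genes. Without TCM replicate 2 the calls were 2 higher and 1 lower, against 22.7% and 22.3% of all tested genes. Without replicate 1 of both groups they were 6 higher and 1 lower, against 36.3% and 37.9%.

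**Figure D1:**
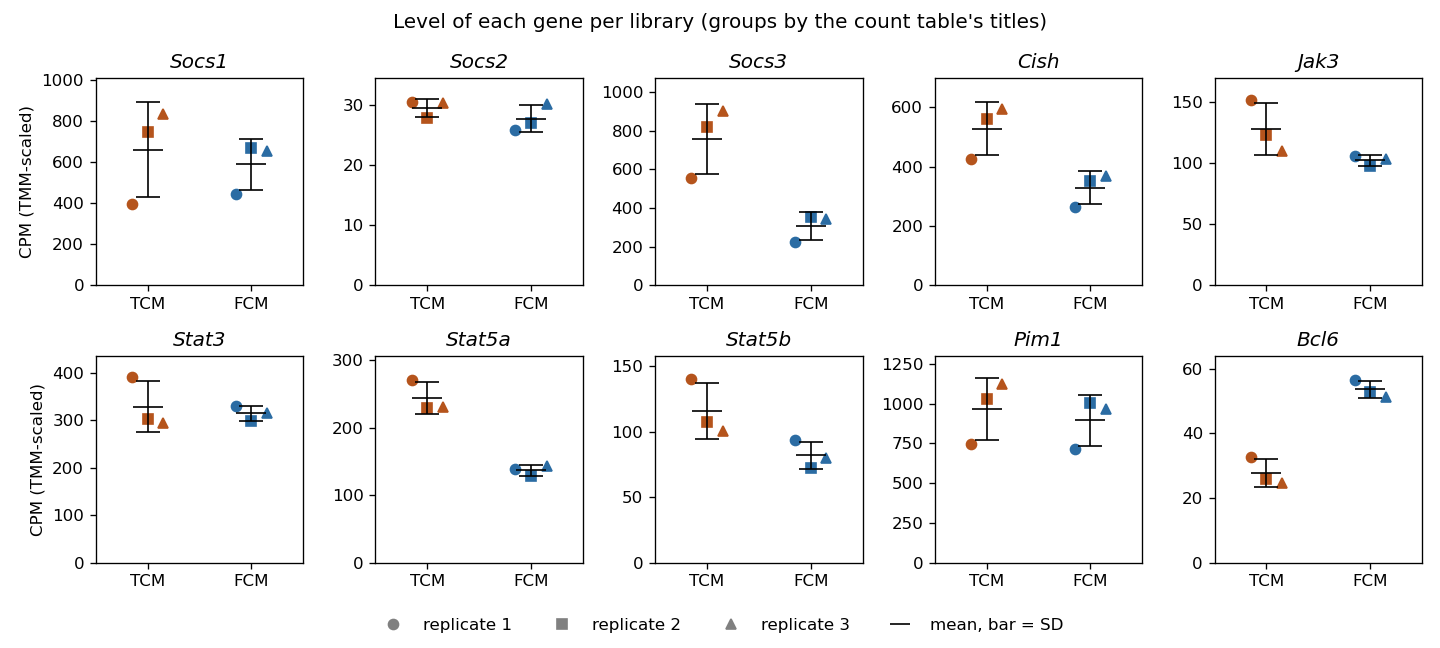
Level of each of the 10 genes in every library, in CPM scaled by TMM from 0, with TCM left of FCM, a symbol for each replicate number and the mean with its SD as a bar (n = 3 each). The groups are apart for Socs3, Cish, Jak3, Stat5a, Stat5b and Bcl6, and replicate 1 is the lowest library of both groups for Socs1, Socs3, Cish and Pim1.

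Cish encodes CIS, a SOCS family inhibitor classically induced by STAT5, and lies at chr9:107296026-107302784 (GENCODE M21, GRCm38, plus strand). Its level was 426, 561 and 594 CPM in TCM replicates 1 to 3, against 264, 352 and 369 CPM in FCM replicates 1 to 3. The lowest TCM library lay above the highest FCM library. Cish rose 1.61-fold (log2 change 0.68 ± 0.19 SE, adjusted p = 0.0143, edgeR), and the log2 change within replicate numbers was 0.69, 0.67 and 0.69. Here and for the genes below, such pairs go by number alone. By correlation across genes the numbers match between the groups for replicate 1 only. Without TCM replicate 2 the log2 change was 0.64 and the adjusted p = 0.0601 in edgeR, so the call was lost without that library. Of its exonic bases 11.5% lie under the exons of genes annotated on the opposite strand, Gm17040 and Gm17041, and whether counting used strand is not given in the sources used here.

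Socs3, whose product binds gp130 and JAKs and restrains IL-6-type signals through STAT3, showed the largest change of the 10. It lies at chr11:117966079-117970047 on the minus strand. Socs3 had 556, 818 and 901 CPM in TCM against 224, 355 and 340 CPM in FCM, with no overlap between the groups. It rose 2.48-fold (log2 change 1.31 ± 0.24 SE, edgeR adjusted p = 0.00174), which placed it at rank 1048 among the 12423 fold changes from the highest down. The change within replicate numbers was 1.31, 1.20 and 1.41 on the log2 scale. Socs3 is also expressed in neutrophils and other myeloid cells. As given above, 9 of 10 neutrophil markers were lower in the same TCM libraries, and of 8 macrophage markers 4 were lower and 2 higher. The part of these cells in the Socs3 level was not tested.

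Socs1, the inhibitor of JAK kinases best known for limiting interferon signals, lies at chr16:10782240-10785536 on the minus strand. It had 396, 747 and 833 CPM in TCM and 443, 669 and 651 CPM in FCM, so the groups overlapped widely. Its log2 change was 0.16 ± 0.28 (SE; adjusted p = 0.636, edgeR), and within replicate numbers it was -0.16, 0.16 and 0.36. Without replicate 1 of both groups Socs1 passed at a log2 change of 0.25 (adjusted p = 0.00794, edgeR), and with library totals as scaling the change was -0.08.

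Socs2, which limits growth hormone signalling and is also induced by STAT5, was the least abundant of the 4 inhibitor genes. It lies at chr10:95385362-95417180 on the minus strand. Its level was 30.5, 27.8 and 30.3 CPM in TCM and 25.9, 27.1 and 30.2 CPM in FCM. These ranges overlapped, and the log2 change was 0.09 ± 0.11 (SE; adjusted p = 0.508, edgeR). With each library's trend on summed exon length removed the log2 change reached 0.32, with an adjusted p = 0.0491 in edgeR. The length used there for Socs2 was 9531 bases, whereas its principal transcript has 2222.

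The letters TTCNNNGAA, the palindrome that STAT dimers and also BCL6 are known to bind, were searched in the RefSeq promoter windows of these genes. Each is 300 bases long, from 250 bases before the start annotated in RefSeq to 50 after it. That start can differ from the end of the GENCODE locus given for a gene. The Cish, Socs3 and second Bcl6 windows lie inside those loci. Windows were found for 9 of the 10 genes, 13 windows in all, and Socs2 was not among them. The pattern reads alike on both strands, although a single copy need not, because its middle letters are free. It occurred in windows of Cish, Socs3 and Bcl6 and in no window of Socs1, Stat3, Stat5a, Stat5b, Pim1 or Jak3, whereas 8.30% of all 32851 windows of this length hold it. Counted by gene, 9.55% of 27025 genes hold it in at least 1 window. At least 2 copies stand in 0.457% of all windows, among them that of Cish and the second of the Bcl6 windows. By gene that share is 0.540%. The sequences are shown because these 3 genes are among the 5 that passed the test, 2 higher and 1 lower in TCM, so that the same letters stand at genes of both directions. They are given 5′ to 3′ on the gene's strand from RefSeq on GRCm38.p6, with each TTCNNNGAA in capitals.
Cish, chr9:107296409-107296708, plus strand: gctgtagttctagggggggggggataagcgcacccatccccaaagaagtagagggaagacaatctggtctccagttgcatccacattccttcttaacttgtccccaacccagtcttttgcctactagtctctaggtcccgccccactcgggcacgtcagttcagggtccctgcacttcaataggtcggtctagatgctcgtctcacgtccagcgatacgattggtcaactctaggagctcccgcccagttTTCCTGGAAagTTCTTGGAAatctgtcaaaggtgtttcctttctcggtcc
Socs3, chr11:117969317-117969616, minus strand: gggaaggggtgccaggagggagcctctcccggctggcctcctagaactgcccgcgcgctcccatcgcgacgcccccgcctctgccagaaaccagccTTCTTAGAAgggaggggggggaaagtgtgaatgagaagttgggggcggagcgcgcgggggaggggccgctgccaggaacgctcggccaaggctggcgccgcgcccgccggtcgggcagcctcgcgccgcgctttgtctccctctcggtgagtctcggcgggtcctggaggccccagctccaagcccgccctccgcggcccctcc
Bcl6, first window, chr16:23988803-23989102, minus strand: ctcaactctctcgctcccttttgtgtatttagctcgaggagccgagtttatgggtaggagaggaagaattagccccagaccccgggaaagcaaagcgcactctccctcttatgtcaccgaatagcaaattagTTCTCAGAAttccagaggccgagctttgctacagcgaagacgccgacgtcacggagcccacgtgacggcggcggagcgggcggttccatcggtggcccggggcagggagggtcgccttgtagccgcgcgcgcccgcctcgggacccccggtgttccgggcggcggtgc
Bcl6, second window, chr16:23981234-23981533, minus strand: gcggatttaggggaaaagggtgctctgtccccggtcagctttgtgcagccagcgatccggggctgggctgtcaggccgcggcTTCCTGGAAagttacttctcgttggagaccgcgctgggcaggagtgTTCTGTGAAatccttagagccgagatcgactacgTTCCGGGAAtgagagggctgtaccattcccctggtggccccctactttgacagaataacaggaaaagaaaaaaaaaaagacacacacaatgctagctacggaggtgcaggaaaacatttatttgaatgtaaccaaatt

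In the Cish window the copies TTCCTGGAA and TTCTTGGAA begin 0 and 11 bases from the annotated start. The single Socs3 copy, TTCTTAGAA, begins at -154 and the Bcl6 copy TTCTCAGAA at -118 in its first window. The second Bcl6 window holds TTCCTGGAA, TTCTGTGAA and TTCCGGGAA at -168, -122 and -88. These matches describe the letters alone, and binding was not measured.

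Stat5a and Stat5b encode the pair of closely related factors that carry IL-2 signals, and lie next to each other at chr11:100859351-100885169 (plus strand) and chr11:100780731-100850724 (minus strand). Stat5a had 271, 230 and 231 CPM in TCM against 139, 128 and 143 CPM in FCM. All TCM libraries were above all FCM libraries. It rose 1.78-fold (log2 change 0.84 ± 0.14 SE, edgeR adjusted p = 0.000927).

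Stat5b had 140, 107 and 100 CPM in TCM against 93.3, 72.5 and 80.1 CPM in FCM. The groups did not overlap, but the lowest TCM library was close to the highest FCM library. Stat5b rose 1.41-fold (log2 change 0.50 ± 0.17 SE, edgeR adjusted p = 0.0282). Its call was lost with library totals (log2 change 0.30, adjusted p = 0.324), without TCM replicate 2 (0.56, adjusted p = 0.0522), without FCM replicate 2 (0.42, adjusted p = 0.105) and without FCM replicate 3 (0.48, adjusted p = 0.0897), all in edgeR. The transcripts of both genes share 608 stretches of 50 bases, which is 8.21% of those of Stat5a and 11.0% of those of Stat5b, so reads from these stretches could fall to either gene.

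Stat3, the main factor downstream of IL-6, IL-10 and IL-21, lies at chr11:100885098-100939540 on the minus strand and overlaps the end of Stat5a by 72 exonic bases. It had 390, 302 and 294 CPM in TCM and 330, 299 and 315 CPM in FCM. The FCM libraries lay within the TCM range, and the log2 change was 0.06 ± 0.16 (SE; adjusted p = 0.754, edgeR). The change was 0.24 within replicate 1, 0.01 within replicate 2 and -0.10 within replicate 3.

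Jak3, the kinase that pairs with the common gamma chain, lies at chr8:71676296-71690575 on the plus strand. It had 151, 123 and 110 CPM in TCM against 106, 97.6 and 104 CPM in FCM. The groups did not overlap, although the margin between TCM replicate 3 and FCM replicate 1 was small. The log2 change was 0.32 ± 0.15 (SE; adjusted p = 0.0901, edgeR), short of the threshold. With the replicate number as a block Jak3 passed at 0.31 ± 0.11 (adjusted p = 0.00656, edgeR), and DESeq2 gave 0.35 with an adjusted p = 0.0460. With library totals the change was 0.13 (adjusted p = 0.650, edgeR). Jak3 shares 404 exonic bases on the same strand with Insl3, which had 28 counts over the TCM libraries and 69 over the FCM libraries.

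**Figure D2:**
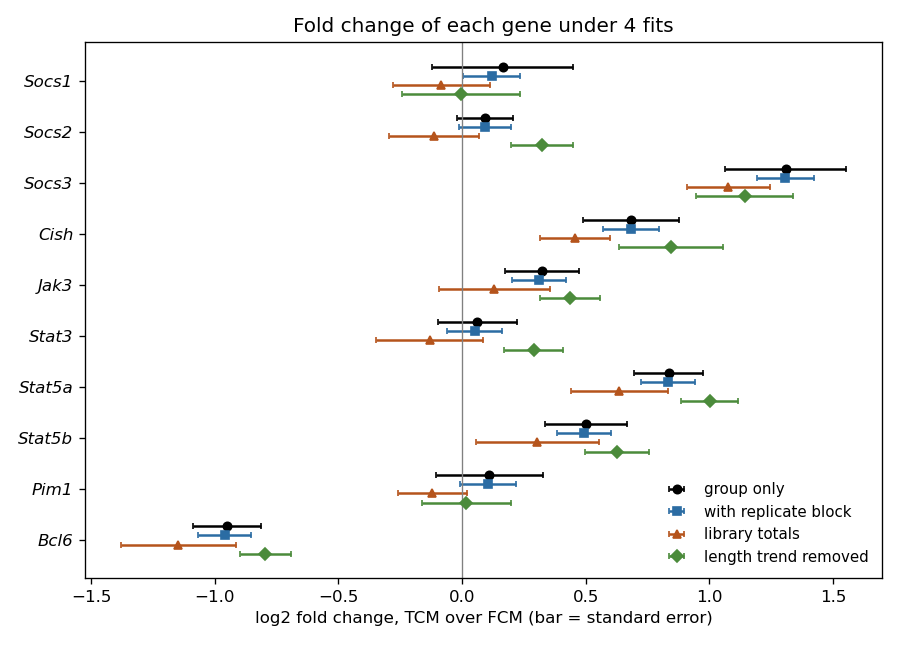
Log2 fold change of TCM over FCM for each of the 10 genes, with its standard error as a bar, under edgeR with the group alone, with the replicate number as a block, with library totals as scaling and with each library's trend on summed exon length removed. Socs3, Cish, Stat5a and Stat5b lie above 0 and Bcl6 below 0 in all 4 fits, and Socs1, Socs2, Stat3 and Pim1 fall below 0 with library totals.

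Pim1, a serine/threonine kinase gene that promotes survival and is switched on by STAT3 and STAT5, was the most abundant of the 10. It lies at chr17:29490753-29496112 on the plus strand. Pim1 had 747, 1027 and 1120 CPM in TCM and 712, 1006 and 963 CPM in FCM. The ranges overlapped and the log2 change was 0.11 ± 0.22 (SE; adjusted p = 0.680, edgeR). Of its exonic bases 14.5% lie under Gm26885, annotated as antisense.

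Bcl6 was the single gene of the 10 that fell. It lies at chr16:23965052-23988852 on the minus strand. Its level was 32.6, 26.0 and 24.5 CPM in TCM against 56.5, 52.9 and 51.4 CPM in FCM. All TCM libraries were below all FCM libraries. Bcl6 fell 1.93-fold (log2 change -0.95 ± 0.14 SE, edgeR adjusted p = 0.000396), and the changes within replicate numbers were -0.79, -1.02 and -1.07. Germinal centre B cells express Bcl6 strongly. Of 6 B cell markers 4 were lower in the same TCM libraries, where 30% of all tested genes were. Their median log2 change was -0.96 with none of the 6 at 0, and the part of B cells in the Bcl6 level was not tested.

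Divided by the length of the principal transcript in GENCODE M21, which allows levels to be compared between genes, Pim1 stood highest in both groups, with 358 ± 72.0 CPM per kilobase in TCM and 331 ± 58.9 in FCM (SD, n = 3 each). In TCM it was followed by Socs3 (297 ± 70.6), Socs1 (227 ± 79.6) and Cish (185 ± 31.2), and each neighbour in this order overlapped the next. Stat3 (72.7 ± 11.8) and Stat5a (62.8 ± 6.12) also overlapped, and below them came Jak3 (31.9 ± 5.30), Stat5b (22.2 ± 4.07), Socs2 (13.3 ± 0.673) and Bcl6 (7.86 ± 1.23), which were apart from their neighbours. In FCM Socs1 (202 ± 43.1) stood above Socs3 (120 ± 28.2) with no overlap, and Socs3 overlapped Cish (115 ± 19.7). The remaining FCM order was Stat3 (69.7 ± 3.41), Stat5a (35.2 ± 2.06), Jak3 (25.5 ± 1.09), Stat5b (15.7 ± 2.02), Bcl6 (15.2 ± 0.742) and Socs2 (12.5 ± 1.01), where Stat5b and Bcl6 overlapped. The feedback inhibitor genes apart from Socs2 thus had higher levels per length than the STAT genes in both groups. With the summed exons of all transcripts as length Socs2 stood below Bcl6 in both groups, at 3.10 and 4.14 CPM per kilobase in TCM and 2.91 and 8.00 in FCM. On that length Cish had 82.1 in TCM and 51.2 in FCM, so its place beside Socs1 and Socs3 depends on the length chosen. Socs1 then had 227 in TCM and 202 in FCM, and Socs3 262 in TCM and 106 in FCM.

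Ratios within a library do not depend on the scaling between libraries. The count ratio of Socs3 to Socs1 was 1.40, 1.09 and 1.08 in TCM against 0.505, 0.531 and 0.522 in FCM. Socs3 thus exceeded Socs1 in 3 of 3 TCM libraries and stayed below it in 3 of 3 FCM libraries. The ratio was 2.28-fold higher in TCM, a log2 difference of 1.19 (two-sided exact permutation test, p = 0.1, the smallest that 3 against 3 libraries allow). The ratio of Stat5b to Stat5a was 0.516, 0.467 and 0.435 in TCM against 0.670, 0.567 and 0.559 in FCM, a log2 difference of -0.34 with no overlap (exact permutation p = 0.1). The ratio of Cish to Socs2 was 14.0, 20.2 and 19.6 in TCM against 10.2, 13.0 and 12.2 in FCM, a log2 difference of 0.59, again with no overlap (exact permutation p = 0.1). These 3 ratios were the full set computed, and none can reach 0.05 in this design.

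**Figure D3:**
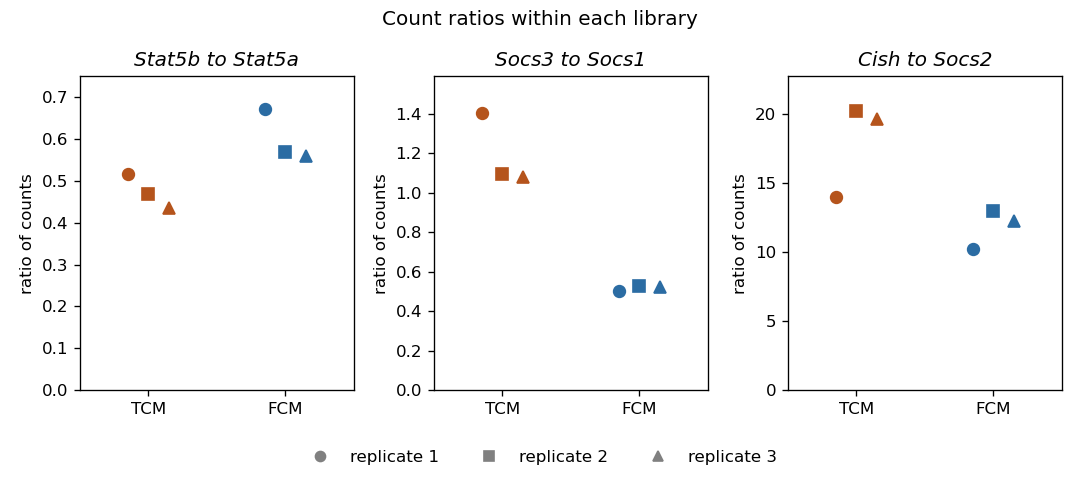
Count ratios of Stat5b to Stat5a, Socs3 to Socs1 and Cish to Socs2 in each library, from 0, with TCM left of FCM and a symbol for each replicate number. No TCM library overlaps an FCM library in any of the 3 ratios, and the Socs3 to Socs1 ratio lies above 1 in the TCM libraries only.

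The 10 genes also differed between replicates of the same medium, in 2 opposite ways. Socs1, Socs3, Cish and Pim1 were lower in replicate 1 than in the mean of replicates 2 and 3 in both groups. The ratio of replicate 1 to that mean was 0.502 in TCM and 0.672 in FCM for Socs1, and 0.647 in TCM and 0.644 in FCM for Socs3. It was 0.738 in TCM and 0.733 in FCM for Cish, and 0.696 in TCM and 0.723 in FCM for Pim1. Stat3, Stat5a, Stat5b, Bcl6 and Jak3 were higher in replicate 1 of both groups, with ratios of 1.18 to 1.35 in TCM and 1.03 to 1.22 in FCM, and Socs2 had 1.05 in TCM and 0.904 in FCM. Among all tested genes 34.6% were lower and 38.6% higher in replicate 1 of both groups. The ribosomal RNA row Rn45s took 11.6% of counts in TCM replicate 1 and 11.2% in FCM replicate 1, against 16.0% to 18.9% in the libraries of replicates 2 and 3, and its part in these differences was not tested. For Socs1, Pim1 and Stat3 this replicate difference was larger than the difference between the groups in both media, and the same held for Jak3 in TCM and for Socs2 in FCM.

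**Figure D4:**
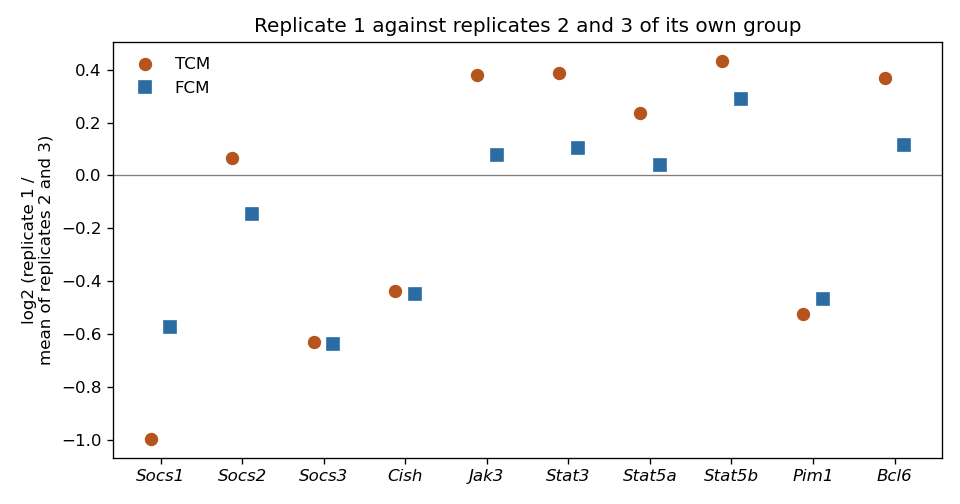
Log2 ratio of replicate 1 to the mean of replicates 2 and 3 of its own group for each of the 10 genes, TCM as circles on the left and FCM as squares on the right. Socs1, Socs3, Cish and Pim1 lie below 0 in both groups, and Jak3, Stat3, Stat5a, Stat5b and Bcl6 above 0 in both.

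Other JAK and STAT genes moved the opposite way to Stat5a and Stat5b. Of 6 reported 5 fell, where 30% of all tested genes did, with a median log2 change of -0.84. Stat6, which carries IL-4 signals, did not pass (-0.34, adjusted p = 0.219, edgeR). Stat2, a factor of interferon signalling, had 60.8, 47.1 and 50.2 CPM in TCM against 164, 164 and 158 CPM in FCM. It fell 3.08-fold, and the interferon receptor kinase gene Tyk2 fell 2.48-fold, and Jak1, Jak2 and Stat4 were the others that fell. In the same TCM libraries 9 of 10 neutrophil markers were lower, and of 8 macrophage markers 4 were lower and 2 higher. The part of these cells in the JAK and STAT levels was not tested.

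Considered next were 18 other genes that restrain JAK-STAT signalling or serve the SOCS box ligase. Of these 3 rose (against 28.8% of all tested genes), 4 fell (against 30%) and 11 did not pass, with a median of -0.02. The other SOCS genes Socs4, Socs5, Socs6 and Socs7 were in the last class, with log2 changes from -0.13 to 0.12 and adjusted p-values from 0.591 to 0.950 (edgeR). The 3 that rose encode small subunits of the cullin 5 ligase that SOCS proteins recruit, Rnf7, Tceb1 and Tceb2. With library totals 1 rose, and likewise without any 1 library other than TCM replicate 1. Rnf7 had 106 ± 25.6 CPM in TCM and 45.8 ± 3.77 CPM in FCM (SD, n = 3), a 2.32-fold rise, while Cul5 itself did not pass (log2 change -0.10, adjusted p = 0.663, edgeR). Sh2b3, an adaptor that restrains JAK2, fell 2.40-fold, and Ptprc, the CD45 phosphatase gene, 1.93-fold. With the length trend removed both Rnf7 and Ptprc kept their calls at smaller log2 changes, 0.70 for Rnf7 against 1.22, and -0.48 for Ptprc against -0.95.

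Receptors and cytokines of the common gamma chain family moved both ways, with 5 of 13 tested genes higher and 4 lower (median 0.20). Over all tested genes 28.8% were higher and 30% lower. With library totals 3 of the 13 were higher, against 19.0% of all tested genes. Il2ra, the high-affinity IL-2 receptor chain, rose 1.52-fold to 698 ± 66.8 CPM in TCM against 460 ± 3.44 CPM in FCM (SD, n = 3; adjusted p = 0.00795, edgeR). Its call was lost with library totals (log2 change 0.40, adjusted p = 0.0894, edgeR). The signalling chains gave log2 changes of 0.20 ± 0.15 for Il2rb (adjusted p = 0.281, edgeR) and -0.31 ± 0.14 for Il2rg (adjusted p = 0.0788, edgeR). Il2rg passed with the replicate block (-0.31, adjusted p = 0.00820), with library totals (-0.52, adjusted p = 0.0242), with the length trend removed (-0.54, adjusted p = 0.00635) and without TCM replicate 1 (-0.34, adjusted p = 0.0404) in edgeR, and in DESeq2 (-0.28, adjusted p = 0.00984). Il2 fell to 18.5, 31.8 and 33.0 CPM in TCM, against 50.3, 67.9 and 68.6 CPM in FCM (log2 change -1.17 ± 0.22 SE, edgeR adjusted p = 0.00204). Il9r fell 17.6-fold, Il15 2.60-fold, and Il21 rose 7.63-fold. Il7 had too few counts to be tested, 1 over the TCM libraries and 8 over the FCM libraries.

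Of 17 tested genes of the gp130, IL-10 and IL-12 families, which signal largely through STAT3 and STAT4, 7 rose and 7 fell (median 0.01). The shares of all tested genes were 28.8% and 30%. With library totals 4 of the 17 rose, against 19.0% of all tested genes. Il10 and Il6 were among the cytokine genes that rose, with Il10 at 67.1, 91.3 and 81.7 CPM in TCM against 3.09, 2.66 and 3.26 CPM in FCM. Most of the tested receptor genes fell, namely Il6ra, Il6st, Il10ra, Il27ra, Il12rb1 and Lifr. Il12rb2, an IL-12 receptor chain, rose by a log2 change of 2.62 (adjusted p = 2.91e-05, edgeR). Il23r rose as well, on 83 counts over the TCM libraries and 54 over the FCM libraries. Il10rb did not pass (0.01, adjusted p = 0.951, edgeR). Il10ra fell 2.46-fold to 23.0 ± 0.480 CPM in TCM against 56.7 ± 1.03 CPM in FCM (SD, n = 3), and Il6st, the gene of gp130, fell 1.70-fold (adjusted p = 0.00281, edgeR), with a log2 change of -0.49 in place of -0.76 when the length trend was removed. Lifr, the LIF receptor, fell to 0.584 ± 0.204 CPM in TCM against 8.36 ± 1.08 CPM in FCM.

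Among 12 tested genes of the interferon and colony-stimulating factor families 2 rose, Ifng and Csf3, and 4 fell (median -0.30). The shares of all tested genes were 28.8% higher and 30% lower. With the replicate block or without replicate 1 of both groups 7 of the 12 fell, against 37.0% and 37.9% of all tested genes. With the length trend removed 8 fell, against 29.3%. Csf3, the gene of G-CSF, a cytokine that acts through STAT3 and induces Socs3 in neutrophils, had 53.8, 75.6 and 79.4 CPM in TCM against 0.091, 0.15 and 0.12 CPM in FCM. Its receptor gene Csf3r had 12.7 ± 2.21 CPM in TCM against 95.8 ± 2.95 CPM in FCM (SD, n = 3), a 7.52-fold fall, and is itself a neutrophil gene. Csf2rb, the shared receptor chain of GM-CSF, IL-3 and IL-5, fell 3.20-fold.

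In the list of genes linked to STAT5 in survival and the cell cycle 9 of 18 rose and 4 fell (median 0.38). With library totals 6 rose and 4 fell, against 19.0% and 31.9% of all tested genes. Without TCM replicate 2, 7 rose and 4 fell, against 22.7% and 22.3%. In the main fit the shares of all tested genes were 28.8% and 30%. Cdkn1a, a cell cycle inhibitor gene also known as a p53 target, rose 6.85-fold and Gzmb, the protease granzyme B, 5.86-fold. Ccnd1, the cyclin D1 gene, fell 5.42-fold to 1.66 ± 0.124 CPM in TCM against 9.02 ± 1.28 CPM in FCM (SD, n = 3). The Pim1 relative Pim2 was among those that rose and Myc among those that fell. In the list linked to STAT3, 8 of 16 rose and 1 fell, Cebpd (median 0.39), against 28.8% and 30% of all tested genes. In that list 2 fell in DESeq2, with library totals and with the length trend removed, 3 with the replicate block and without TCM replicate 1, and 4 without replicate 1 of both groups. Of all genes in these fits 21.4% to 37.9% fell. Batf, an AP-1 factor gene of activated T cells, had 284, 414 and 463 CPM in TCM against 57.0, 86.4 and 88.2 CPM in FCM, a 5.01-fold rise, and Il10 and Il21 stand in this list too.

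Of 18 genes around BCL6, 5 rose, 3 fell and 10 did not pass (median -0.06), where 28.8% of all tested genes rose and 30% fell. With library totals 3 rose, against 19.0% of all tested genes. With the replicate block or the length trend removed 5 fell, against 37.0% and 29.3%. Without replicate 1 of both groups 7 fell, against 37.9%. Prdm1, the gene of BLIMP-1 and the classical opponent of Bcl6, had 29.1, 20.6 and 18.8 CPM in TCM and 23.0, 20.2 and 21.9 CPM in FCM (log2 change 0.08 ± 0.17 SE, edgeR adjusted p = 0.703). Its direction was not fixed, at -0.11 with library totals. Tbx21, the gene of T-bet, rose 2.33-fold to 409 ± 63.4 CPM in TCM against 175 ± 29.2 CPM in FCM (SD, n = 3), Ccr7, a lymph node homing receptor, rose 2.03-fold, and Klf2, a factor of quiescent T cells, fell 2.50-fold. Over the 8 lists together, each gene counted once, 34 of 112 tested genes rose and 32 fell, against 28.8% and 30% of all tested genes. With library totals 23 rose and 37 fell, against 19.0% and 31.9%. The groups did not overlap in 63.4% of these list genes, against 64.2% of all tested genes.

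**Figure D5:**
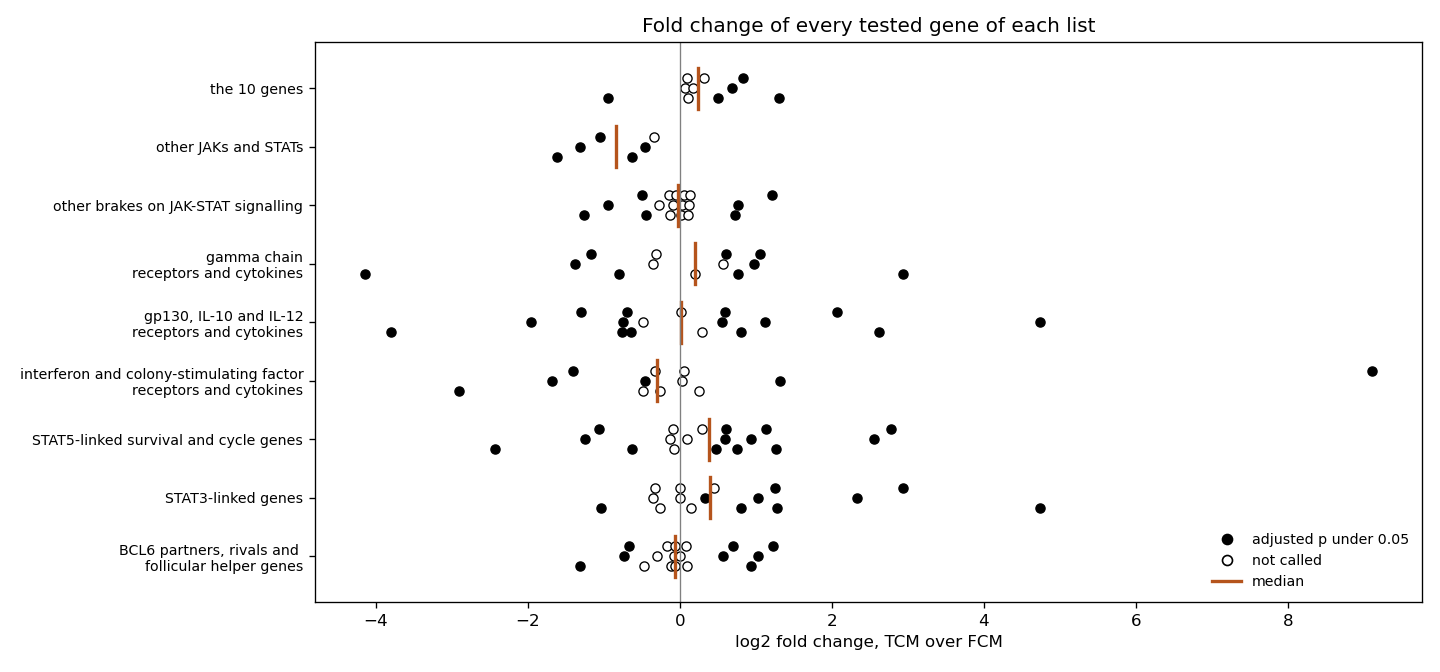
Log2 fold change of TCM over FCM for the 10 genes and for every tested gene of 8 lists, with filled points for adjusted p under 0.05, open points for the others and a bar for each median. The other JAKs and STATs lie below 0 for 6 of 6 genes, and the single point near 9 is Csf3.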

How the data were processed

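The deposited count table gives whole-number exon read counts for each gene symbol. In the deposited normalized table the authors divided these counts by a size factor for each library, which gives a signal. The submitters' processing notes name STAR 2.7.2d, DESeq2 1.28.1 and mm10, and the sources used here give neither their roles nor the counting tool, annotation or strand setting. The 92 spike-in rows held no counts and were left out. After filterByExpr and TMM scaling, edgeR's quasi-likelihood test (edgeR 4.0.16, R 4.3.3) was fitted with group alone, and p-values were adjusted by Benjamini-Hochberg over 12423 genes. The code was tested on simulated data. The standard error is the size of the log2 change divided by the square root of F. Alternatives were DESeq2 1.42.0, RLE factors, library totals, no filter, a replicate block, removal of each library's trend on exon length (94.0% of tested genes had a length), libraries left out, and reads recovered from the normalized table (whole for 100% of values within 0.1 reads, with 3726 genes called higher and 3584 lower under its header). Deviations from the group mean correlated between libraries of the same number with r = 0.60, 0.15 and 0.36 across genes. The numbers were treated as pairs only in the replicate block and in the changes within replicate numbers, not in the main fit. No label states what a number shares, and TCM replicate 3 with FCM replicate 2 (r = 0.42) and TCM replicate 2 with FCM replicate 3 (r = 0.27) correlated more than some same-numbered libraries, so by this measure the numbers match for replicate 1 alone. Depth limits the precision of genes with few counts, 1 count being worth 0.0388 to 0.0583 CPM. The genes, lists and tests were chosen with earlier results of these data known. Named by rule were the 10 genes, the 3 genes with the smallest p in each of 8 lists and 8 fixed genes, and 1 further list gene is not reported here. Other list genes were named after their values were seen.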

Additional observations from a re-analysis of the deposited data

How the results depend on the processing

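Socs3, Stat5a and Bcl6 kept their direction and their call in all 14 settings that use the count table's header, with log2 changes of 1.08 to 1.49, 0.63 to 1.003 and -1.15 to -0.80. Leaving out 1 library at a time gave log2 changes of 0.54 to 0.82 for Cish, 0.34 to 0.60 for Stat5b, -0.032 to 0.43 for Socs1, -0.077 to 0.15 for Stat3, -0.035 to 0.27 for Pim1 and -0.13 to 0.21 for Prdm1. In these fits 2 to 4 of the 10 genes were called higher, against 22.7% to 31.9% of all tested genes. With library totals Socs1, Socs2, Stat3 and Pim1 stood at -0.084, -0.11, -0.13 and -0.12, Stat5b at 0.30 without its call, Prdm1 at -0.11 and Il2rb at -0.0066. With the length trend removed Socs1 stood at -0.0042, and Socs2 (0.32) and Jak3 (0.44) passed. With the replicate block and the length trend removed together 7 of the 10 genes were called higher, against 34.9% of all tested genes, as Socs2 (0.33), Stat3 (0.29) and Jak3 (0.43) passed, and Socs1 stood at -0.041. Jak3 passed with the replicate block (0.31) and in DESeq2 (0.35), and the block changed no other call among the 10. Without replicate 1 of both groups Socs1 (0.25) and Jak3 (0.20) passed, Stat3 stood at -0.055 and Prdm1 at -0.10. The cause of these shifts was not tested.

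Under the normalized table's header 1 of the 10 genes was called higher and 4 lower, against 30.0% and 28.8% of all tested genes. The log2 changes were then -0.16 for Socs1, -0.091 for Socs2, -1.31 for Socs3, -0.68 for Cish, -0.062 for Stat3, -0.84 for Stat5a, -0.50 for Stat5b, -0.11 for Pim1, 0.95 for Bcl6 and -0.32 for Jak3. The ratio differences were 0.34 (Stat5b to Stat5a), -1.19 (Socs3 to Socs1) and -0.59 (Cish to Socs2). Among the list genes Stat2 stood at 1.62, Tyk2 at 1.31, Sh2b3 at 1.27, Ptprc at 0.95, Il9r at 4.14, Il15 at 1.38, Lifr at 3.80, Il10ra at 1.30, Csf3r at 2.91, Csf2rb at 1.68, Ccnd1 at 2.44, Klf2 at 1.32, Il2 at 1.17, Il2rg at 0.31 and Il6st at 0.76. Rnf7 stood at -1.22, Il21 at -2.93, Il10 at -4.74, Csf3 at -9.10, Gzmb at -2.55, Cdkn1a at -2.78, Batf at -2.33, Ccr7 at -1.02, Tbx21 at -1.22, Prdm1 at -0.078, Il2ra at -0.60 and Il2rb at -0.20.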
